A study of Mus musculus with 6 samples.

Results

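Imprinted genes are transcribed mainly from the allele inherited from 1 parent. The 10 examined here, H19, Igf2, Igf2r, Grb10, Dlk1, Meg3, Ndn, Plagl1, Peg3 and Mest, have been linked to stem cell quiescence. They were chosen by platform gene symbol among 18194 genes measured on microarrays of early blood progenitors. Of the 10 genes, 9 had at least 1 probe set annotated to them alone, 37 probe sets in all. H19 had none of its own, and its only probe set was annotated to both H19 and Mir675. A second shared probe set was annotated to Igf2r and the antisense transcript Airn. Both shared probe sets are described as such and stayed out of the test over genes. All 6 arrays were of lineage-negative, cKit-positive, Sca1-positive bone marrow cells, the fraction rich in stem and multipotent cells of the blood, from mice 6 weeks old. All the mice carried 1 GFP reporter allele and 1 wild-type allele of Hes1, a repressor downstream of Notch. The cells were divided into GFP-positive and GFP-negative, with 3 arrays of each. Replicate 1 was female and replicates 2 and 3 male in both groups. Each array was made from 5 ng of RNA, and the effect of that amount on dim probe sets was not tested. The labels do not say whether the arrays came from separate animals or from pools, so the p-values reflect the spread among these arrays, which may be technical. Since the GFP-negative cells carry the same reporter allele, no array of mice without it was compared.

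Several of these genes act on fetal and tissue growth. Igf2 is a secreted growth factor that signals through the receptor Igf1r, Igf2r takes it up for degradation, and Grb10 is an adaptor that dampens signalling by the insulin and Igf1 receptors. H19 is a non-coding RNA transcribed from the maternal allele beside Igf2, and in blood stem cells the H19 locus is known to restrain signalling through Igf1r. Dlk1, a membrane protein related to the Notch ligands, and the non-coding RNA Meg3 form another imprinted pair. Plagl1 and Peg3 are zinc finger transcription factors, Ndn is a growth suppressor of the MAGE family, and Mest is a protein with a hydrolase fold.

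The 2 mature RNAs of a microRNA and 3 promoters are shown because the largest differences below fall on their loci. In the RefSeq gene list (GRCm38.p6) Mir675 lies inside H19, which is why 1 probe set bears both names. The 1 probe set that names Mir675 is that one, so neither of its mature arms was measured on its own. The arms come from the minus strand at chr7:142577112-142577133 for 5p and chr7:142577078-142577099 for 3p, and they are given 5′ to 3′ with the seed, bases 2 to 8, in capitals.
mmu-miR-675-5p: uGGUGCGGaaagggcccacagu
mmu-miR-675-3p: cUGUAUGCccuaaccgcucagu
The 2 seeds differ, so the arms do not belong to 1 seed group.

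RefSeq promoter windows of 300 bases around gene starts (GRCm38.p6) were found for 9 of the 10 genes, 16 windows in all, and not for H19. The letters TGCCGC, recognised when methylated by the imprint-keeping factor Zfp57, were searched on both strands. They were present in 6 of the 16 windows, from 5 genes, 2 of the 6 being Mest windows that overlap. Of all 32841 windows, 11.6% held them. The letters include a CG pair, and 14 of the 16 windows held at least 7 CG pairs, the median of all windows. The shares were not matched for CG pairs. The windows of Plagl1 (chr10:13090582-13090881, plus strand), Grb10 (chr11:12037371-12037670, minus strand, 1 of its 2) and Igf2 (chr7:142661222-142661521, minus strand, 1 of its 4) each held 1 match. They are shown on the strand of the gene, with the match in capitals, where it reads as its reverse complement.
Plagl1: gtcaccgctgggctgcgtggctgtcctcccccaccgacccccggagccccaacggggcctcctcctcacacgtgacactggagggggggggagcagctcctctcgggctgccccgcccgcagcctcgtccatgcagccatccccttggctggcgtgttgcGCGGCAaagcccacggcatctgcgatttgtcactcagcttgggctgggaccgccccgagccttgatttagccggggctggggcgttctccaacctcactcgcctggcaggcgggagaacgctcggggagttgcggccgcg
Grb10: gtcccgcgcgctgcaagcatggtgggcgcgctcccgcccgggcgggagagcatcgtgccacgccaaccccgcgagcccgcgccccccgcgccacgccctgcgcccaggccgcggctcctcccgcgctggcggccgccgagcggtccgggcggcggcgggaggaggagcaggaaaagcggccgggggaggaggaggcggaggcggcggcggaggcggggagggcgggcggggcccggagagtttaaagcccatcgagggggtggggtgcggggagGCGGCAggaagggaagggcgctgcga
Igf2: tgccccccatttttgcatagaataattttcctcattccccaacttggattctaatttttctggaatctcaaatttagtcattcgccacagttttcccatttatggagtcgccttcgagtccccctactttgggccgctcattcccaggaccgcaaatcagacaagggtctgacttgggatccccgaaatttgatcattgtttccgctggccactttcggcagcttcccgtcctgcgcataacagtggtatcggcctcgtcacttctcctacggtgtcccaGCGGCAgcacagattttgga
The Grb10 window shown held 45 CG pairs, a number reached by 1.93% of all windows, and the other Grb10 window 9 and no TGCCGC. The Plagl1 window held 26 and the Igf2 window 14, against a median of 7. The letters TGGGAA, the core read by the Notch effector Rbpj, were absent from the Plagl1 and Grb10 windows and present 2 times in the Igf2 window. Over all windows 25.6% held them, and 6 of the 16 did. The letters CACNAG, a site bound by Hes1, were in none of the 3 windows shown, in 8 of the 16 and in 42.5% of all. Among the Igf2 windows not shown, those at chr7:142657447-142657746 and chr7:142666767-142667066 held 1 each. The 3 motifs were searched on both strands, and overlaps between them were not removed.

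Values below are log2 intensities, those of a group are in the order of replicates 1, 2 and 3, and a difference is GFP-positive minus GFP-negative. Array medians lay between 74.0 and 78.49 on the linear scale, and the arrays correlated at 0.925 to 0.951 over all probe sets. The arrays matched their sex labels in Xist and the Y-linked genes. From the same genes come a lower guide to background of 4.69, the highest Y-linked value in a female array, and an upper guide of 5.59, the highest Xist value in a male array. Kit, which encodes the gate marker cKit, lay between 9.69 and 10.72 on every array. Listed with it as the gate list are other blood cell and subset markers, by which the cells were not gated. Of these Ptprc, Cd34, Flt3, Cd48 and Procr lay between 9.44 and 12.43, and Slamf1 between 4.89 and 9.01. Ly6a, which encodes Sca1, had no probe set of its own. Hes1 read 6.78, 6.79 and 7.10 on the GFP-negative arrays and 7.36, 7.09 and 7.84 on the GFP-positive arrays. Its difference was 0.54 ± 0.24 (SE, limma adjusted p = 0.78), and the groups overlapped.

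No member passed over all genes. By limma 0 of the 9 members with their own probe set had an adjusted p under 0.05, as had 0 of all 18194 genes, which is 0%. An unadjusted p under 0.05 was found for 1 member, Grb10, and for 6.71% of all genes. Grb10 was also the only member whose 3 GFP-positive arrays all lay above the GFP-negative ones, a pattern found in 5.89% of genes in that direction. The median difference was 0.23 over the 9 members, 7 of them positive, and 0.008 over all genes, of which 51.3% were positive. Probe set by probe set, 0 of the 37 passed over all 45101 (limma, 0% of all), and 4 had an unadjusted p under 0.05, against 6.14% of all. All 4 were higher in GFP-positive cells, against 2.87% of all probe sets higher and 3.27% lower at that p. They were 2 sets of Grb10, 1 of Igf2 and 1 of Plagl1, and sets of the same gene are not independent. A positive difference was found in 50.2% of all probe sets. In 5 of the 37 the GFP-positive arrays all lay above the others, and in 0 below, against 5.59% and 5.58% of all probe sets. These 5 belonged to Grb10, with 2, and to Igf2, Plagl1 and Meg3. In bulk RNA, more cells that express a gene and more RNA per cell cannot be told apart.

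**Figure D1:**
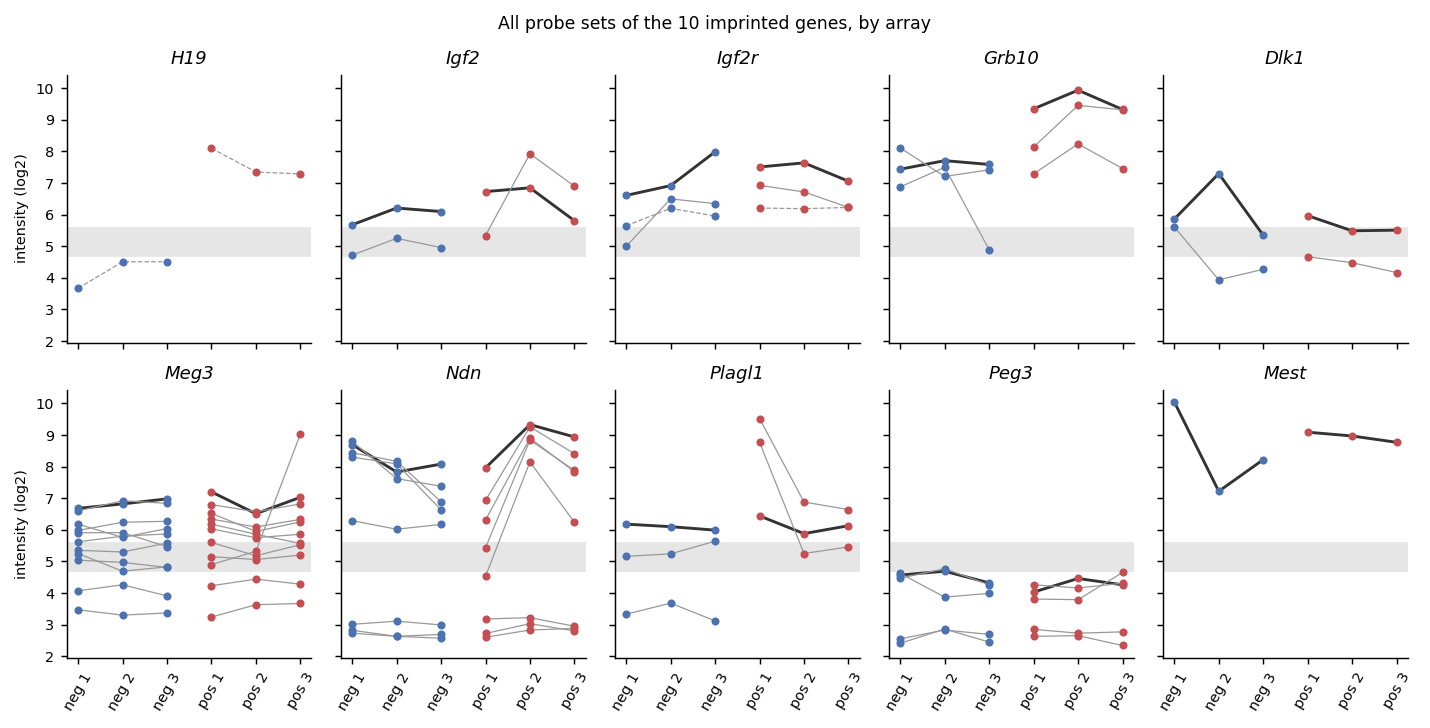
Intensity (log2, vertical axis) of each probe set of the 10 imprinted genes on the 3 GFP-negative (blue) and 3 GFP-positive (red) arrays. Lines join the values of 1 probe set, thick for the one standing for the gene and dashed for one shared with another symbol, and the grey band runs from 4.69 to 5.59, the guides to background; H19 stands below the band on the GFP-negative and above it on the GFP-positive arrays.

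The probe set shared by H19 and Mir675 had the smallest p of all probe sets of the 10 genes. It read 3.67, 4.51 and 4.51 on the GFP-negative arrays and 8.10, 7.35 and 7.29 on the GFP-positive arrays. All the GFP-negative arrays were under the lower guide to background and all the GFP-positive arrays above the upper one. The means were 4.23 ± 0.48 (SD, n = 3) and 7.58 ± 0.45, a difference of 3.35 ± 0.34 (SE), or 10.2-fold. Because the GFP-negative level is not above background, the fold is better read as a bound, at least 7.44-fold against the lower guide and at least 3.99-fold against the upper. The limma p was 7.89e-05 before and 0.237 after adjustment over all probe sets. By the two-sided exact permutation test p was 0.1, the smallest that 3 arrays against 3 allow. In the males alone the difference was 2.82, and between arrays of the same replicate number it was 4.43, 2.85 and 2.78.

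Igf2, the growth factor encoded beside H19 with 1 RefSeq gene between them, had 2 probe sets. The first, which stands for the gene, read 5.68, 6.21 and 6.10 on the GFP-negative arrays and 6.73, 6.85 and 5.81 on the GFP-positive arrays, so the groups overlapped. Its difference was 0.47 ± 0.33 (SE, limma adjusted p = 0.937 over all genes). The other was at 4.72, 5.25 and 4.96 against 5.34, 7.93 and 6.90. The groups did not overlap here, but GFP-positive replicate 1 exceeded the highest GFP-negative array only narrowly. It and all the GFP-negative arrays, 4 in all, were under the upper guide to background. The difference was 1.75 ± 0.65 (SE, limma adjusted p = 0.772 over all probe sets), and the exact permutation p was 0.1. It was 0.61 in the female pair and 2.31 in the males alone. Replicate 1, the highest GFP-positive array for the H19 and Mir675 probe set, was thus the lowest for this one.

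Igf2r, the receptor that clears Igf2, overlapped between the groups on all its probe sets. The set standing for the gene read 6.61, 6.92 and 7.99 on the GFP-negative arrays and 7.51, 7.64 and 7.06 on the GFP-positive arrays, a difference of 0.23 ± 0.39 (SE, limma adjusted p = 0.977). The second differed by 0.68 ± 0.45 and the one shared with Airn by 0.27 ± 0.19. GFP-negative replicate 1 was the lowest array on all 3.

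Grb10, the adaptor at the insulin and Igf1 receptors, had the smallest p of the 9 members with a probe set of their own. Its highest probe set read 7.44, 7.71 and 7.59 on the GFP-negative arrays and 9.35, 9.94 and 9.33 on the GFP-positive arrays. Every value was well over both guides, and the nearest arrays of the groups stood more than 1.5 apart. The difference was 1.96 ± 0.22 (SE), or 3.89-fold, with a limma p of 0.000105 and an adjusted p of 0.159 over all genes, rank 12 of 18194. The exact permutation p was 0.1. Between arrays of the same replicate number it was 1.91, 2.24 and 1.74. The second Grb10 probe set gave 1.39 ± 0.43, with 8.11, 7.21 and 7.42 against 8.14, 9.46 and 9.32. In the female pair it differed by only 0.024. The third gave 1.24 ± 0.71 and overlapped, since GFP-negative replicate 3 was at 4.89 and the other arrays between 6.88 and 8.24. All 3 thus had a positive difference, and GFP-positive replicate 2 was the highest array on each.

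**Figure D2:**
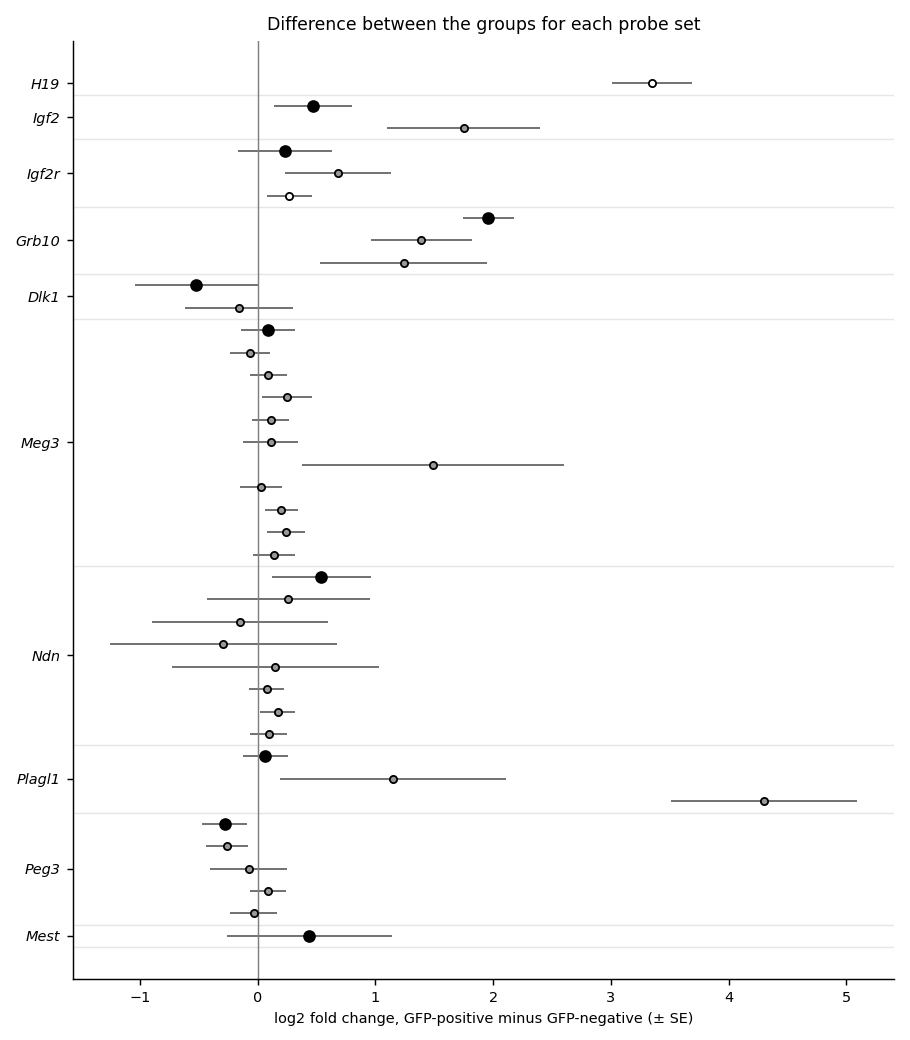
Difference in log2 intensity, GFP-positive minus GFP-negative, for each probe set (points) with the SE from limma (bars), grouped by gene. Large black points stand for the gene, grey points are its other probe sets and white points are shared with another symbol; the probe set of H19 and Mir675 is at 3.35, Grb10 from 1.24 to 1.96 and Plagl1 from 0.065 to 4.30.

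Plagl1, a zinc finger factor that acts on other imprinted genes, gave different values on its 3 probe sets. The set that stands for it by the highest mean read 6.18, 6.10 and 5.99 on the GFP-negative arrays and 6.44, 5.88 and 6.13 on the GFP-positive arrays. The difference was 0.065 ± 0.19 (SE, limma adjusted p = 0.99). The set with the lowest mean read 3.33, 3.68 and 3.12 against 9.52, 6.88 and 6.64. All GFP-negative arrays were under the lower guide and all GFP-positive arrays above the upper one, as for the H19 and Mir675 probe set. The difference was 4.30 ± 0.79 (SE), with a limma p of 0.00177, an adjusted p of 0.435 over all probe sets and an exact permutation p of 0.1. As a bound it was at least 7.95-fold against the lower guide and at least 4.26-fold against the upper. The third probe set stood apart on 1 array alone: GFP-positive replicate 1 was at 8.77, and the other 5 arrays lay between 5.16 and 5.64. Its difference was 1.15 ± 0.96, and 0.009 without that array. The mean over the 3 probe sets, the one under background included, differed by 1.84. The annotation gives them 1 symbol and does not say which transcripts they read. The lowest-mean set bears the _x_ suffix, of the kind left out in 1 alternative below. Whether it also reads transcripts of other genes was not tested.

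Dlk1, the ligand relative, was not higher in GFP-positive cells on either probe set. The one standing for the gene read 5.86, 7.30 and 5.35 on the GFP-negative arrays and 5.97, 5.49 and 5.51 on the GFP-positive arrays, a difference of -0.52 ± 0.51 (SE, limma adjusted p = 0.962). One array, GFP-negative replicate 2, was above 6, and without it the difference was 0.05. The other probe set, at -0.16 ± 0.46, was under the lower guide on 5 of 6 arrays. Meg3, which lies beyond 2 RefSeq genes from Dlk1, had 11 probe sets, of which 10 differed by less than 0.3 in either direction. The set standing for it was at 6.68, 6.82 and 6.98 against 7.20, 6.51 and 7.03, a difference of 0.089 ± 0.22 (SE, limma adjusted p = 0.986). The exception was at 9.03 in GFP-positive replicate 3 and between 4.69 and 5.32 on the other 5 arrays, which gave 1.49 ± 1.11. The Meg3 probe set whose groups did not overlap was under the upper guide on all 6 arrays, with a difference of 0.20 ± 0.14.

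Ndn, the growth suppressor, overlapped between the groups on all its probe sets. Its 8 probe sets fell into 3 whose means lay under the lower guide and 5 above the upper. The one standing for the gene read 8.70, 7.83 and 8.08 on the GFP-negative arrays and 7.96, 9.33 and 8.94 on the GFP-positive arrays, a difference of 0.54 ± 0.41 (SE, limma adjusted p = 0.957). GFP-positive replicate 2 was the highest array on all 5 of the upper probe sets, and GFP-positive replicate 1 the lowest on 4 of them. In the set at 8.30, 8.09 and 6.63 against 5.43, 8.84 and 7.88 the female pair differed by -2.87, while the difference of means was -0.29 ± 0.96. Leaving the females out moved the difference of the set standing for Ndn to 1.18.

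Peg3, the other zinc finger factor, was near background. All of its 5 probe sets had means under the lower guide, and their differences lay between -0.28 and 0.088. All 5 were under the upper guide on all 6 arrays, so no rise above it was seen in either group. A difference below background could not have been seen. Mest had 1 probe set, at 10.05, 7.22 and 8.22 on the GFP-negative arrays and 9.09, 8.97 and 8.77 on the GFP-positive arrays. The GFP-negative arrays spanned the GFP-positive ones on both sides. The difference was 0.44 ± 0.69 (SE, limma adjusted p = 0.975), -0.96 in the female pair and 1.15 in the males alone.

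Summed genes listed as markers of other cells differed between arrays and, for some lists, between the groups. By limma 0 markers passed over all genes. A gene's place in a list does not show which cells expressed it here, since the gated cells may express it too. Of 22 endothelial genes 19 were highest in GFP-positive replicate 1, and their summed intensity was 23217 there against 5370 and 6706 in the other GFP-positive arrays and 5265 to 7771 in GFP-negative ones. Of the 22, 5 were under the upper guide in all GFP-negative arrays and 5 in both other GFP-positive arrays. Of the 2 with the highest mean, Egfl7 was at 11.10 in that array and up to 11.37 in the others, and Eng at 11.17 against up to 10.46. The vascular cadherin Cdh5, named with its values known, reached 9.83 there and lay between 4.29 and 5.01 elsewhere. The endothelial genes of smallest p, Tek and Tie1, 2 receptors also named with their values known, lay higher on all the GFP-positive arrays. Tek was at 8.71, 7.67 and 7.04 there and between 4.74 and 5.40 on the others, and it differed by 2.82, or by 2.37 without GFP-positive replicate 1. Tie1 was at 7.99, 8.60 and 8.02 against 7.31 to 7.52. These 2 do not stand for the list as a whole, whose median was taken after centring each gene on its mean. That median was -0.44 and -0.40 in GFP-positive replicates 2 and 3, and -0.47 to -0.33 on the GFP-negative arrays. At an unadjusted p under 0.05, 3 of the 22 endothelial genes and 2 of the 16 stroma genes were higher and 0 lower, against 3.33% of all genes higher and 3.38% lower. Marrow stroma genes were highest in the same array in 11 of 16 cases, with a summed intensity of 11289 against 1620 and 2406 in the other GFP-positive and 1307 to 2075 in GFP-negative arrays. Pdgfrb, with the highest mean of these, differed by -0.21 ± 0.44 (SE). Cxcl12, the chemokine of marrow stroma, was at 12.52, 9.27 and 8.33 on the GFP-positive arrays and between 5.34 and 5.52 in GFP-negative ones, and it differed by 3.39 without GFP-positive replicate 1. Its 3 probe sets differed by -0.005 to 4.63. The next stroma genes by p, Vcam1 and Adipoq, were named with their values known. Vcam1, an adhesion molecule, was at 9.50, 9.24 and 7.38 against 6.46 to 6.83, and Adipoq, a fat cell hormone also made by marrow stroma, at 9.50, 6.26 and 3.27 against 3.25 to 3.69. All 3 probe sets of Plagl1 were highest in GFP-positive replicate 1. Without that array the H19 and Mir675 probe set differed by 3.09, the lowest-mean Plagl1 set by 3.38 and the highest Grb10 set by 2.05. The part of either cell type in these values was not tested.

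The summed level of mitotic genes was higher on every GFP-positive array. All 19 measured had a positive difference, with a median of 1.55 (limma, 0 passed over all genes), and the summed intensity was 30383 to 42684 against 7636 to 22708. Summed intensities of red cell precursor genes (13 measured) were 13220 to 18240 in GFP-positive against 9417 to 10787 in GFP-negative arrays. Megakaryocyte genes (10) summed to 7262 to 10220 against 1949 to 3292, and B cell genes (9) to 3049 to 10819 against 1185 to 2614. For monocytes and macrophages (11) the sums overlapped, at 3290 to 6398 against 2073 to 3634, as they did for granulocytes (8), at 11210 to 25982 against 10548 to 14889, and for T and NK cells (9), at 2441 to 3621 against 3024 to 3668. The gate list (7) summed to 11664 to 15808 against 18634 to 19777, though its genes did not all go the same way. The 2 genes of highest mean in each list differed by 2.72 and 1.5 for the mitotic Ube2c and Mki67, 0.052 and 0.37 for the red cell genes Car2 and Hemgn, and 3.02 and 0.68 for the platelet genes Pf4 and Itga2b. For the B lineage Vpreb1 and Cd79b differed by 1.51 and 0.30, for T and NK cells Nkg7 and Cd4 by -0.11 and -0.65, and for granulocytes Mpo and Prtn3 by 0.080 and 0.038. For monocytes and macrophages Csf1r differed by -2.20 and Hmox1 by 2.52, and of the gate list Cd34 and Cd48 by -0.63 and -0.77. In the rest of the gate list Flt3 differed by -0.89, Kit by -0.43 and Ptprc by -0.28. Procr was higher, by 0.77 with groups that did not overlap, and Slamf1 by 1.41 ± 1.12 (SE) with groups that overlapped. Counts at an unadjusted p under 0.05 were 14 of 19 higher for mitotic, 6 of 13 for red cell, 5 of 10 for megakaryocyte and 4 of 9 for B cell genes. They were 5 higher and 1 lower of 11 for monocytes and macrophages, 1 higher of 8 for granulocytes, 1 higher of 9 for T and NK cells, and 1 higher and 2 lower of 7 for the gate list. Of all genes 3.33% were higher and 3.38% lower at that p. Named with their values known, the 6 red cell genes were Ermap (4.49), Klf1 (3.00), Car1 (2.95), Aqp1 (2.11), Rhag (2.02, from means of 2.90 and 4.92, near background) and Rhd (1.48). Besides Car2 and Hemgn, the others of the 13 differed little or were lower. They were Slc4a1 (0.05), Alas2 (0.005), Hba-a1 (-0.04), Epb42 (-0.21) and Trim10 (-0.39). For Trim10 the GFP-positive arrays all lay below the others, a pattern found in 5.51% of all genes. The granulocyte gene was Elane (4.23) and the T and NK cell gene Gzma (3.17). For these and the 6 red cell genes the GFP-positive arrays all lay above the others, a pattern found in 5.89% of all genes. The part of these cells or of division in the differences of H19 and Mir675, Grb10, Igf2 and Plagl1 was not tested.

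**Figure D3:**
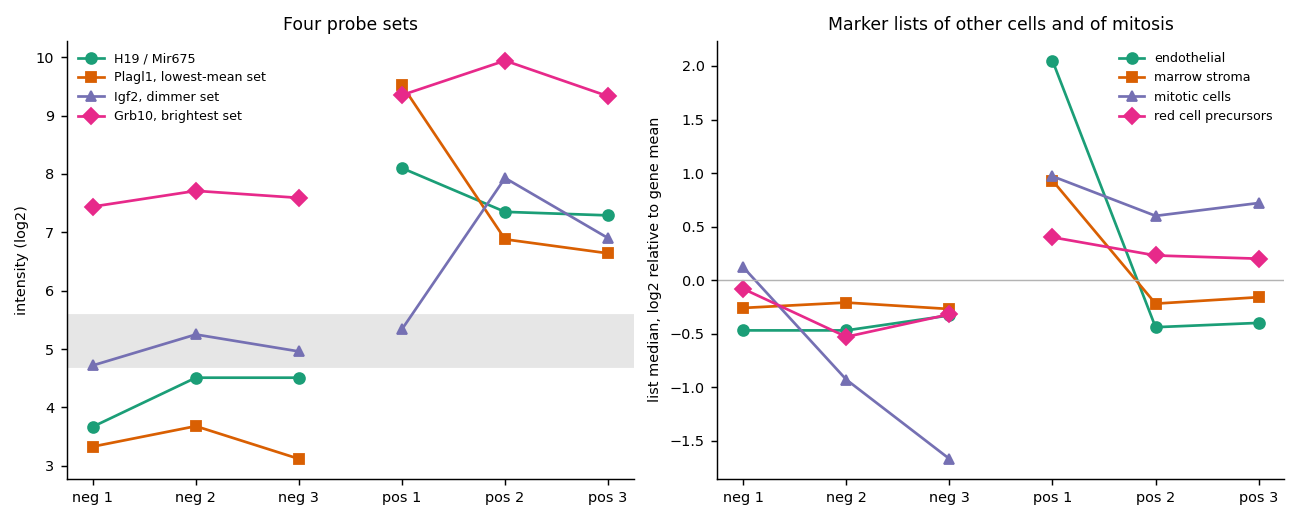
Left, intensity (log2) of the probe sets of H19 and Mir675, of Plagl1 (lowest mean), of Igf2 (second set) and of Grb10 (highest mean) on each array, with the guides to background as a grey band. Right, the median of 4 marker lists after each gene was centred on its mean over the 6 arrays. The 4 probe sets, chosen with their values known, are higher on all 3 GFP-positive arrays than on the others. Sets of Igf2, Plagl1 and Grb10 that are not drawn include some whose groups overlap. The endothelial median is 2.05 in GFP-positive replicate 1 and -0.44 and -0.40 in replicates 2 and 3.

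Among other imprinted genes none passed either. Of 57 genes listed 48 were measured; 0 passed by limma over all genes, an unadjusted p under 0.05 was found for 1 that was higher and 1 that was lower, and the median difference was -0.009 against 0.008 over all genes. These shares of 48 stand beside 3.33% and 3.38% of all genes. In 2 the GFP-positive arrays all lay above and in 2 below the others, patterns found in 5.89% and 5.51% of all genes. The lower one by p was Sfmbt2, a Polycomb-related gene that is imprinted in extraembryonic tissue. It read 6.74, 6.40 and 6.46 on the GFP-negative arrays and 4.69, 5.08 and 4.39 on the GFP-positive arrays. The GFP-positive arrays were under the upper guide, and the difference was -1.81 ± 0.22 (SE, limma adjusted p = 0.177; 2 probe sets, -1.81 and -0.89). The higher one was Cdkn1c, the cyclin-dependent kinase inhibitor p57, which is imprinted and is needed for stem cell quiescence. It was at 6.16, 6.14 and 5.53 against 8.98, 7.84 and 6.44. The groups did not overlap, the difference was 1.81 ± 0.64 (SE, limma adjusted p = 0.667), and it was 1.20 without GFP-positive replicate 1, the array with high endothelial genes. Next by p came Sgce, a sarcoglycan, at 0.74 ± 0.35 (0.39 without GFP-positive replicate 1; 2 probe sets, -0.11 and 0.74) and Ascl2, a basic helix-loop-helix factor, at 0.78 ± 0.40. Nap1l5, named with its values known, reached 9.39 in GFP-negative replicate 1 and lay between 4.06 and 5.38 on the other arrays.

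The insulin-like growth factor axis, with 20 of 21 genes measured, had a median of -0.008, 0 calls over all genes and 1 gene of 20 higher at an unadjusted p under 0.05, beside 3.33% of all genes. That gene was Igf1, the second ligand of Igf1r, at 8.12, 6.13 and 5.72 on the GFP-negative arrays and 9.76, 8.69 and 8.43 on the GFP-positive arrays. The groups did not overlap, and the difference was 2.30 ± 0.70 (SE, limma adjusted p = 0.592), with 4 probe sets from 0.41 to 2.75. Irs2, a substrate of the insulin receptor, was at -0.91 ± 0.52 and Hmga2, a chromatin protein of fetal stem cells that acts on Igf2bp genes, at -0.73 ± 0.49. The 4 probe sets of Hmga2 ran from -1.22 to 0.40. Igfbp5, a binding protein for the ligands, was at 8.94 in GFP-positive replicate 1, where endothelial and stromal genes stood high, and between 3.76 and 4.63 elsewhere.

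Genes that keep imprints, 18 of 19 measured, gave no call. Their median was 0.11, 0 passed over all genes and 0 had an unadjusted p under 0.05 by limma. The 4 with the smallest p were the histone methyltransferases Ehmt2, at -0.39 ± 0.18, and Setdb1, at 0.50 ± 0.24, the zinc finger factor Zfp57, at 0.39 ± 0.18 and between 4.92 and 5.69 on all arrays, and the maintenance methyltransferase Dnmt1, at 0.39 ± 0.21. The 3 probe sets of Setdb1 disagreed in sign, from -0.83 to 0.50. Those of Ehmt2 (2) ran from -0.39 to -0.10 and those of Dnmt1 (3) from 0.28 to 0.47.

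**Figure D4:**
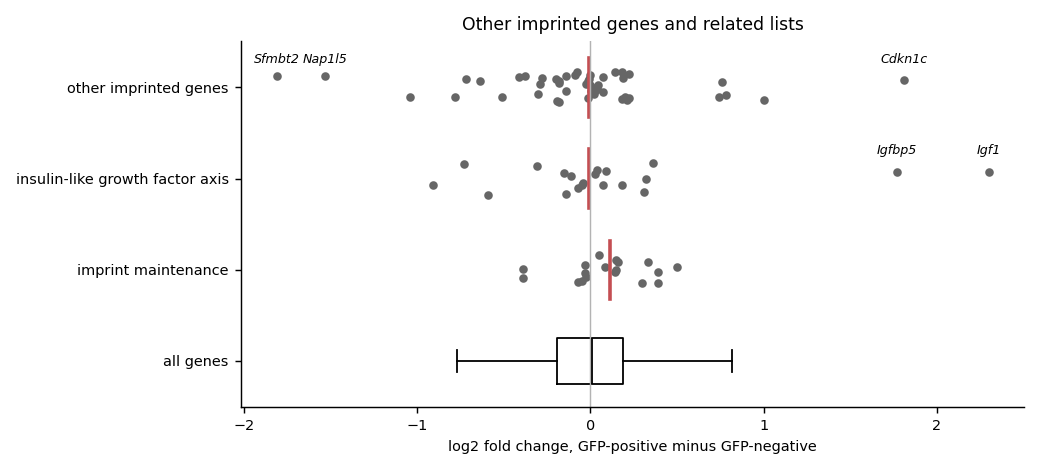
Log2 fold change, GFP-positive minus GFP-negative, of each measured gene (points) of the 3 related lists, with the list median as a red bar. The box of all 18194 genes shows the median and quartiles with whiskers at percentiles 5 and 95, and genes past 1.5 in either direction are named; the list medians lie at -0.009, -0.008 and 0.11.

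The profiles of 3 members with the largest SD over the 6 arrays were set against all genes by the root mean square difference after centring. For Grb10 (SD 1.10) the nearest were Zg16, Tnni1 and Tinf2, at 0.084, 0.17 and 0.26. For Mest (SD 0.95) they were Ccdc34, Dtx3 and Cdc42bpa, at 0.18, 0.20 and 0.21, all highest in GFP-negative replicate 1. For Dlk1 (SD 0.72) they were Gja5, Lin52 and Gm19395, at 0.13, 0.14 and 0.14, all highest in GFP-negative replicate 2. Chosen after the values were seen, the H19 and Mir675 probe set (SD 1.88) was nearest to Cd5l, Gzma and Aldh1a1, at 0.44, 0.47 and 0.48. The lowest-mean Plagl1 set (SD 2.57) was nearest to Cxcl12, the proteoglycan Bgn and Mt2, at 0.43, 0.55 and 0.68. Over 6 arrays such closeness describes these profiles only.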

How the data were processed

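Each array came with the authors' deposited linear intensities of 45101 probe sets. Per the submitters' processing notes RMA was used; the version is not given in the sources used here. Its background correction shrinks differences of dim probe sets, and its quantile normalisation removes a shift common to most genes. Log2 was taken with no pseudocount or filter. The platform's annotation gave 34958 probe sets 1 symbol, 932 several and 9211 none listed. Of those with 1 symbol 34897 matched a RefSeq symbol. The probe set with the highest mean stood for a gene.

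Groups were compared with limma 3.58.1 (lmFit and eBayes, R 4.3.3) over 18194 genes and, beside them, over all probe sets, with Benjamini-Hochberg adjustment at 0.05. Single values used a two-sided exact permutation test. The number of arrays limits the precision. Members, lists and tests were chosen with earlier results of these data known. Named are the members, 4 genes of smallest p in each related list, Cdkn1c, the nearest profiles of the 3 members with the largest SD, the 2 genes of highest mean in each marker list, and Hes1 and Xist; any other name was chosen with its values seen. Figures used matplotlib 3.10.9 in Python 3.11.15.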

Additional observations from a re-analysis of the deposited data

How the results depend on the processing

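Of the members tested 0 passed by limma under each of the 19 alternatives, each probe set taken alone among them, while 1 of 9 was under an unadjusted p of 0.05 in the main analysis. The filter at percentile 40 of mean level left out Igf2, Dlk1, Plagl1 and Peg3, and that at 60 also Igf2r and Meg3. Over all genes 0 passed in 16 of the 19, 1 after genes under percentile 40 of mean level were left out and 2 with percentile 60; with 1 array left out the count ran from 0 to 5, the 5 coming without GFP-positive replicate 3. Grb10 kept its direction in all 19 run on it, from 1.53 to 2.07 (limma adjusted p 0.109 to 0.478). For Grb10 the 19 include the female pair, at 1.91 with no p, in place of each probe set taken alone. The H19 and Mir675 probe set kept its direction in 15, from 2.82 to 3.50 (0.173 to 0.558). So did the lowest-mean Plagl1 set in 14, from 3.36 to 4.82 (0.155 to 0.706), and the second Igf2 set in 15, from 1.14 to 2.44. The alternatives run on single probe sets and the female pair were chosen after seeing the data.

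Small differences changed sign. In the males alone Igf2r was at -0.10, Meg3 at -0.13 and Plagl1 at -0.037; in the female pair Dlk1 was at 0.11, Ndn at -0.74 and Mest at -0.96; without _x_ and _s_ probe sets Meg3 was at -0.061 and Ndn at -0.29. With 1 array left out the ranges were -0.052 to 0.63 for Igf2r, -0.93 to 0.05 for Dlk1, -0.055 to 0.29 for Meg3, -0.082 to 0.20 for Plagl1 and -0.19 to 1.22 for Mest. The members' median was 0.44 and 0.54 with the 40th and 60th percentile filters, which test fewer genes, -0.037 in the males alone, 0.44 with the mean of probe sets and 0.065 without _x_ and _s_ sets, and 0.085 to 0.40 with 1 array left out. The other imprinted genes were at -0.047 and -0.19 with the filters and 0.034 in the female pair, and -0.053 to 0.00292 with 1 array left out. The growth factor axis was at -0.22 and -0.45 with the filters and 0.17 in the female pair. The imprint maintenance list was at 0.029 with the mean of probe sets, -0.028 over single probe sets and 0.00058 to 0.18 with 1 array left out. The cause of these shifts was not tested.

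The replicate numbers were not taken as pairs: the deviations of same-numbered arrays correlated at 0.124, 0.0503 and 0.0922, although each array correlated best with its own number. With the replicate number as a block 0 genes passed (limma, smallest adjusted p = 0.352; 1390 at an unadjusted p under 0.05, against 1221 without), 0 of the members passed, and the medians stayed at 0.23, -0.009, -0.008 and 0.11. Peg3, the dimmer Dlk1 set and the GFP-negative levels of the H19 and Mir675 and the Plagl1 sets lie under the lower guide to background, which limits what can be measured there.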
